A study of Arabidopsis thaliana with 42 samples.

Results

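The chloroplast genome of Arabidopsis thaliana carries its own small set of genes, and their transcripts are described here across 12 RNA-seq libraries of whole seedlings. Members were all rows of the deposited expression table whose locus ID starts with ATCG. There were 133 such rows of 34262 in all. The libraries were made from total RNA of Col-0 seedlings 14 days old and form 6 groups of 2. Wild type (WT) and the vil1 mutant (vil1-1 in the titles) were grown at 22 °C and at 27 °C. The arp6 mutant and the arp6vil1 double mutant were grown at 22 °C only, and the labels name no allele for arp6. VIL1 is a PHD-finger protein that works with the Polycomb repressive complex, and ARP6 belongs to SWR1, the complex that deposits the histone variant H2A.Z; both are nuclear. The study asked how these genes take part in the response to warm ambient temperature. The labels do not say whether the 2 libraries of a group came from separate plantings, so a p-value here measures the spread between these libraries, which may be technical. The series also holds 30 ChIP-seq samples, which are not analysed here.

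A chloroplast holds many copies of a circular genome that encodes subunits of both photosystems, the cytochrome b6f complex, the ATP synthase, the NDH complex of cyclic electron flow, the large subunit of Rubisco, and part of the organelle's own transcription and translation machinery. Transcription is shared between a bacterial-type polymerase, whose core is encoded by the plastid genes rpoA, rpoB, rpoC1 and rpoC2, and phage-type polymerases encoded in the nucleus. The bacterial-type enzyme depends on nuclear sigma factors and on associated proteins, and it transcribes most photosynthesis genes. In plants that lack it, accD, ycf2 and the rpoB gene group are known to be transcribed by the phage-type enzymes. Most plastid genes are transcribed as long multi-gene RNAs that are cut and trimmed afterwards. Plastid RNA mostly lacks long poly(A) tails, and the labels name an NEB library kit without saying whether the RNA was selected by poly(A) or depleted of ribosomal RNA.

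The table gives RPKM, the reads per kilobase of gene scaled to the reads of the library. It pairs no gene name with its IDs. Names were therefore given where a row's length, worked out from its values, matched 1 chloroplast gene name of the RefSeq table (TAIR10.1) and no other. This named 65 coding genes. They comprise 13 genes of photosystem II, 3 of photosystem I, 5 of cytochrome b6f, 5 of ATP synthase, 8 of the NDH complex, rbcL, the 4 polymerase genes, 10 of the small and 8 of the large ribosomal subunit, and 8 others. A further 37 rows were transfer RNA (tRNA) genes and 8 were ribosomal RNA (rRNA) genes. Rows whose length fits several coding genes or none are given by locus ID. Among these are ATCG00020 and ATCG00270, which both have the length shared by psbA and psbD, the genes of the photosystem II proteins D1 and D2.

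Depth ran from 52.5 M to 102.8 M reads per library, and a chloroplast row held a median of 4260 reads and at least 2 in each library. The green-tissue markers were high in all 12 libraries but not level. CAB1 (AT1G29930) stood at 15279 and 15863 RPKM in WT at 22 °C and at 7128 and 7441 in WT at 27 °C. In vil1 it was at 12728 and 12035 at 22 °C and 7401 and 7452 at 27 °C. It was at 7852 and 7703 in arp6 and 10674 and 9582 in arp6vil1. RBCS3B (AT5G38410) was at 3835 and 3882 in WT at 22 °C and 2705 and 2606 in arp6. RBCS1A (AT1G67090) was at 4376 and 4160 in WT at 22 °C and 4417 and 4296 in arp6. The summed level of the 5 root markers was 21.1 to 44.3 RPKM, highest in arp6. ARP6 itself stood at 12.1 to 14.4 RPKM in WT and vil1, at 0.398 and 0.207 in arp6, and at 0.798 and 0.715 in arp6vil1. The VIL1 gene (VRN5, AT3G24440) stood at 6.71 and 6.67 RPKM in WT and 5.13 and 5.38 in vil1 at 22 °C, a log2 difference of -0.30 that did not pass (adjusted p = 0.0669, limma). It stood at 8.71 and 8.29 in WT and 6.91 and 6.27 in vil1 at 27 °C. In arp6 it was at 8.69 and 8.10 and in arp6vil1 at 2.49 and 2.49, a log2 difference of -1.43 (limma adjusted p = 1.24e-07). All vil1 libraries thus lay below their counterparts with VIL1, but the transcript was present in each. Between arp6vil1 and arp6 the median log2 level of nuclear coding genes also differed, by -0.68. The arp6 libraries list 6651 and 6566 features at 0, against 104 to 194 in the other 10 libraries. Transfer RNA genes of the nucleus had a median of 0 RPKM in arp6 and 0.662 to 1.80 RPKM elsewhere. The median nuclear coding gene was at 1.94 and 1.79 RPKM in arp6vil1, against 3.34 to 4.97 RPKM elsewhere. RPKM values are shares of a library, and in bulk tissue fewer chloroplasts or green cells and less RNA per cell cannot be told apart.

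Chloroplast rows made up 7.01% and 7.64% of the summed RPKM in WT at 22 °C. They made up 6.88% and 7.20% in WT at 27 °C, 7.57% and 7.16% in vil1 at 22 °C, and 7.40% and 7.34% in vil1 at 27 °C. The 2 mutants without ARP6 lay on opposite sides of these 8 libraries: 4.07% and 4.61% in arp6, and 17.0% and 14.9% in arp6vil1. Much of the difference in arp6vil1 was rRNA, which made up 7.08% and 5.79% of its summed RPKM and 0.577% to 1.43% of that of the other libraries. The median coding gene stood at 110 and 114 RPKM in WT at 22 °C, 35.2 and 37.0 in arp6, and 307 and 278 in arp6vil1.

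**Figure D1:**
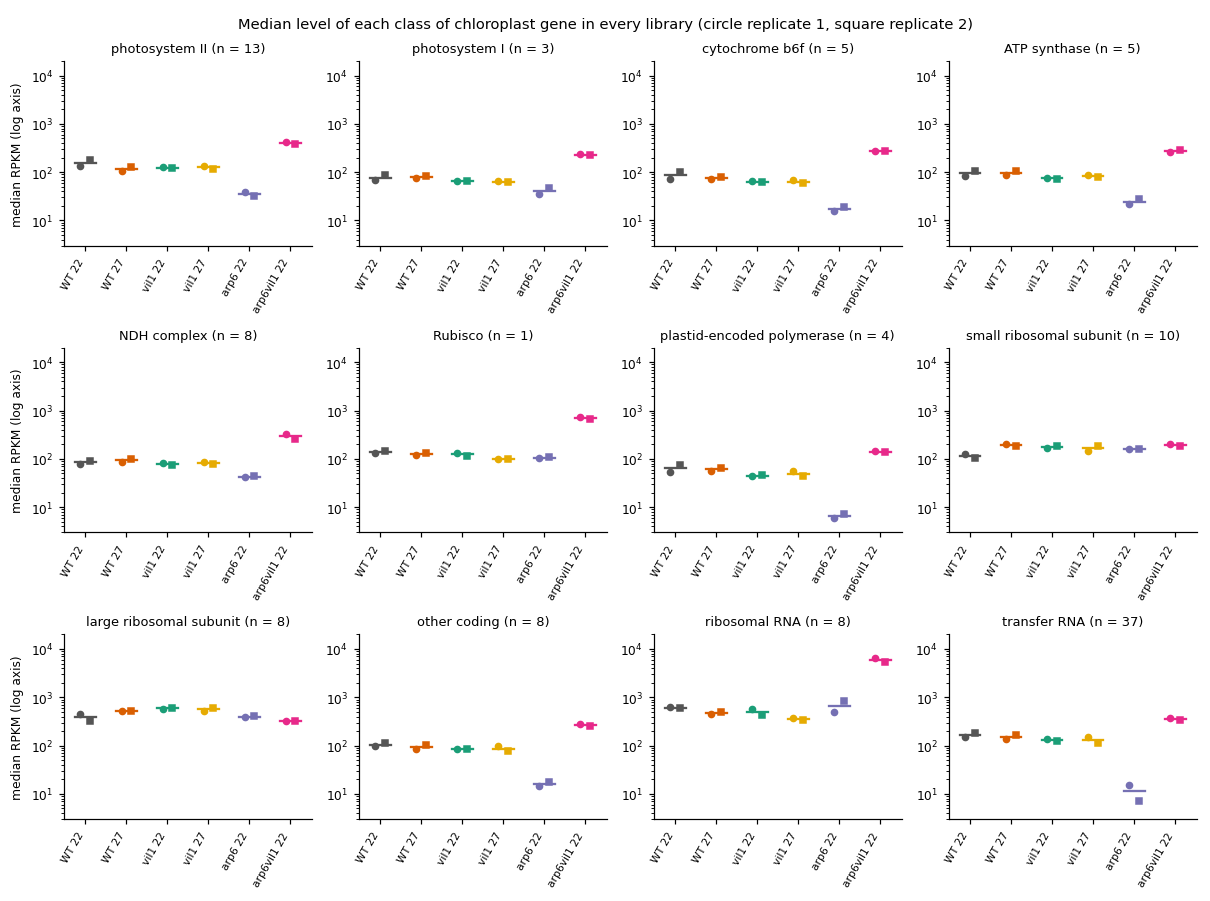
Median RPKM (log axis) of each class of chloroplast gene in all 12 libraries; a circle is replicate 1, a square replicate 2 and a bar their mean. In 8 of the 12 panels arp6 has the lowest mean, and in 11 of 12 arp6vil1 has the highest. The exceptions are Rubisco, rRNA and the ribosomal protein genes.

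Levels per length differed widely among the coding genes of WT at 22 °C. The highest means belonged to psbM, a small photosystem II subunit (7234 ± 1955 RPKM (SD, n = 2)), rpl32, a large-subunit ribosomal protein (5837 ± 1319 RPKM (SD, n = 2)), and atpE and atpB, the epsilon and beta subunits of ATP synthase (3529.8 ± 254 RPKM (SD, n = 2) and 1527 ± 457 RPKM (SD, n = 2)). The gene of the Rubisco large subunit, rbcL, was at 142 ± 8.88 RPKM (SD, n = 2), and psaA and psaB, the core of photosystem I, were at 76.7 ± 13.5 RPKM (SD, n = 2) and 76.9 ± 12.8 RPKM (SD, n = 2). The genes psbM and rpl32 are 105 and 159 bases long, and RPKM of genes near the length of a sequenced fragment depends strongly on how reads were assigned to them. Counting by strand and the treatment of reads that map to several places are not given in the sources used here. The neighbours psbC and ATCG00270, atpB and atpE, and the 2 copies of genes in the inverted repeat may therefore share reads. The named repeat copies differed by a median of 0.101% to 0.367% between their rows in each library. Counts of rows and shares of summed RPKM take in both copies, as in the rRNA and tRNA rows.

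In WT at 27 °C several ribosomal protein genes were higher than at 22 °C, among them rps3, rpl22 and rpl14, and rpl32, psaJ and psbK were lower. Of 133 rows, 21 passed the test at 27 °C against 22 °C, 14 higher and 7 lower (limma on log2(RPKM + 1) over all 12 libraries, Benjamini-Hochberg adjusted p under 0.05). Over all 31454 features tested 20.6% were called, 16.9% higher and 3.61% lower, so the chloroplast share of calls, 15.8%, was no larger than the background. The rows include both repeat copies of rps7 and of a gene with no name here (ATCG00905 and ATCG01230). The split of higher against lower depends on the scaling: after centring on nuclear coding genes 7 rows were higher and 22 lower (15.7% of all features called), and after quantile normalization 13 and 2 (14.6%). Of the 65 named coding genes 10 rose and 5 fell, 50 missed the threshold, and their median log2 change was -0.07 against 0.09 over all features. The calls were uneven among classes. In the small ribosomal subunit 5 of 10 genes rose and 1 fell, and in the large subunit 2 of 8 rose and 1 fell. In photosystem II 2 of 13 fell, in photosystem I 1 of 3 fell, and none of the 18 named genes of ATP synthase, cytochrome b6f and the NDH complex passed. Rubisco's rbcL did not pass either, with a log2 change of -0.17. The fit shares 1 spread per gene over all 12 libraries. The SE was thus wide here for genes whose arp6vil1 libraries differ, 0.31 for atpE, 0.28 for ndhG and 0.27 for ndhI. It was 0.13 for atpA and 0.14 for ndhA. For the first 3 genes a missed threshold therefore says little about WT.

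The largest rise was that of rps3, a small-subunit ribosomal protein. The RPKM of rps3 was 266 and 167 in WT at 22 °C, 570.3 and 493 in WT at 27 °C, 367 and 399 in vil1 at 22 °C and 436 and 568 in vil1 at 27 °C. Each WT library at 27 °C lay above both WT libraries at 22 °C, and the log2 change was 1.33 ± 0.20 (SE; adjusted p = 0.00234). Its neighbour rpl22, a large-subunit protein, was at 194 and 135 RPKM in WT at 22 °C and 398 and 339 at 27 °C, a log2 change of 1.18 ± 0.17 (SE; adjusted p = 0.00241). Also near them is rpl14, another large-subunit protein, which rose by 0.95. Farther along stands rpoA, the alpha subunit of the plastid polymerase. For rpoA the levels were 107 and 95.9 RPKM in WT at 22 °C, 143 and 134 in WT at 27 °C, 132 and 138 in vil1 at 22 °C and 113 and 129.9 in vil1 at 27 °C. Its log2 change in WT was 0.45 ± 0.10 (SE; adjusted p = 0.00971). The other polymerase genes did not pass: rpoB, rpoC1 and rpoC2 changed by -0.13, -0.05 and -0.07.

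The 8 genes rpl23, rpl2, rps19, rpl22, rps3, rpl16, rpl14 and rpoA stand in this order in the reference and belong to 1 known cotranscribed group, called the run here. They were set out as a group after their values were seen, so no test is made over them. In WT at 27 °C 5 of the 8 rose and the other 3 were at 0.35 (rpl16), 0.15 (rpl2) and 0.08 (rpl23). The row ATCG00760 rose by 0.81. Outside the run, rps7, a small-subunit protein, rose by 0.99, and ycf1, which encodes a subunit of the protein import channel of the inner envelope, rose by 0.47. Also outside it, psbC and atpB stood at 0.60 and 0.37 and did not pass.

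The falls were headed by rpl32. Levels of rpl32 were 4905 and 6769.6 RPKM in WT at 22 °C, 2685 and 3279 in WT at 27 °C, 4798 and 4492 in vil1 at 22 °C and 3785 and 3494 in vil1 at 27 °C. The WT libraries at 27 °C were both below those at 22 °C, with a log2 change of -0.96 ± 0.20 (SE; adjusted p = 0.00932). Photosystem I's small subunit gene psaJ stood at 485 and 677 RPKM at 22 °C and 315 and 378 at 27 °C, a log2 change of -0.73 ± 0.15 (SE; adjusted p = 0.00892). The photosystem II genes psbM and psbK changed by -0.64 and -0.58, and psbM turned to 0.19 under quantile normalization. psbM was at 5851 and 8616 RPKM in WT at 22 °C, 3929.7 and 5306 in WT at 27 °C, 5642 and 5096 in vil1 at 22 °C and 6112 and 5399 in vil1 at 27 °C. ATCG00020, a row of the length shared by psbA and psbD, fell from 473 and 571 to 318 and 397 RPKM, a log2 change of -0.55 ± 0.17 (SE; adjusted p = 0.0435). Among tRNA genes 1 of 37 passed, the intron-bearing trnL (ATCG00400), at -0.72. Of the 19 coding genes under 300 bases, 1 rose and 4 fell, and of the 46 longer ones 9 rose and 1 fell. Over the 65 coding genes the change and the length had a Spearman rho of 0.36, a description across genes of 1 genome that share libraries.

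**Figure D2:**
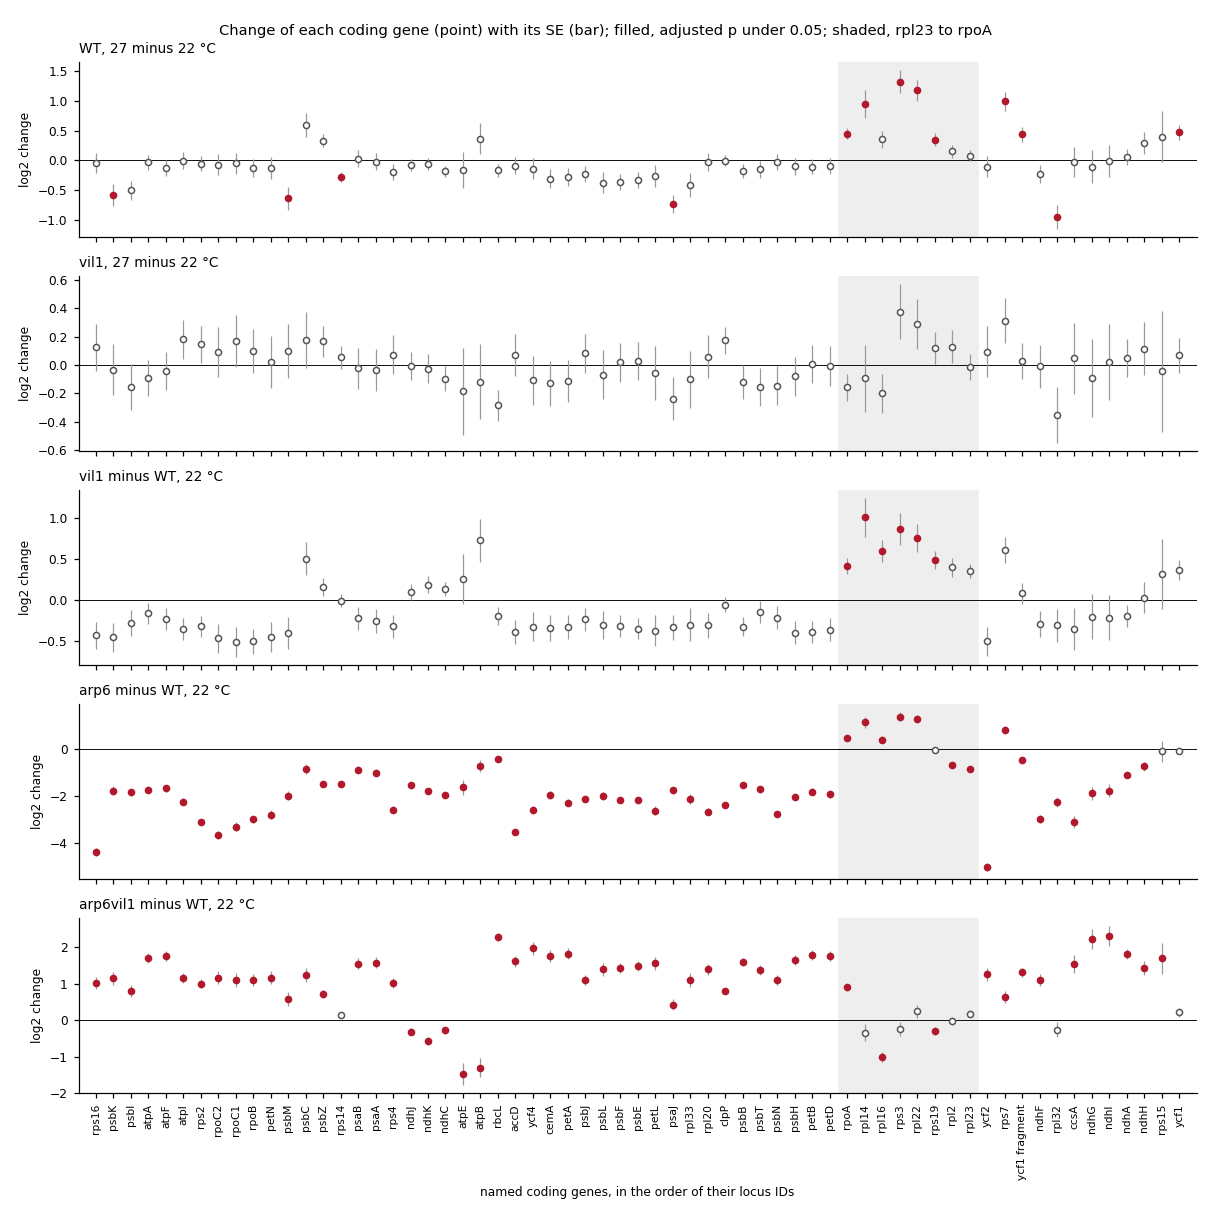
Log2 change (y axis) of 63 named coding genes in the order of their locus IDs (x axis) in 5 comparisons, with 1 SE as a bar; filled points have an adjusted p under 0.05 and the shaded band is rpl23 to rpoA. In warmed WT, in vil1 at 22 °C and in arp6 the band lies above most genes outside it. These comparisons share the WT libraries at 22 °C. In arp6vil1 the band lies below most genes outside it. The nearby gene rps7, outside the band, was above several genes of the band, at 0.99 in warmed WT and 0.61 in vil1 at 22 °C. It also rose in arp6.

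The WT libraries at 22 °C differed between themselves along the same lines. Replicate 1 exceeded replicate 2 in all 8 genes of the run, by 0.12 to 0.95 on the log2 scale with a median of 0.33. Outside the run it was lower in 44 of 55 coding genes, with a median difference of -0.36. It was higher in the other 11, among them atpB by 0.62, psbC by 0.61 and rps7 by 0.38. Run genes such as rpl23 and rpoA differed by less, 0.12 and 0.15. The plot of replicate differences shows this pattern, which was not particular to the run. The part of this replicate difference in the warm change was not tested, and single-library values are therefore given. Without WT replicate 2 at 22 °C, rps3 still passed at 0.99 (adjusted p = 0.00906), rpl22 at 0.92 and rpoA at 0.38, and 10 rows passed in place of 21. Without replicate 1, 39 rows passed and rps3 stood at 1.66. Without WT replicate 1 at 27 °C, 10 rows passed.

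**Figure D3:**
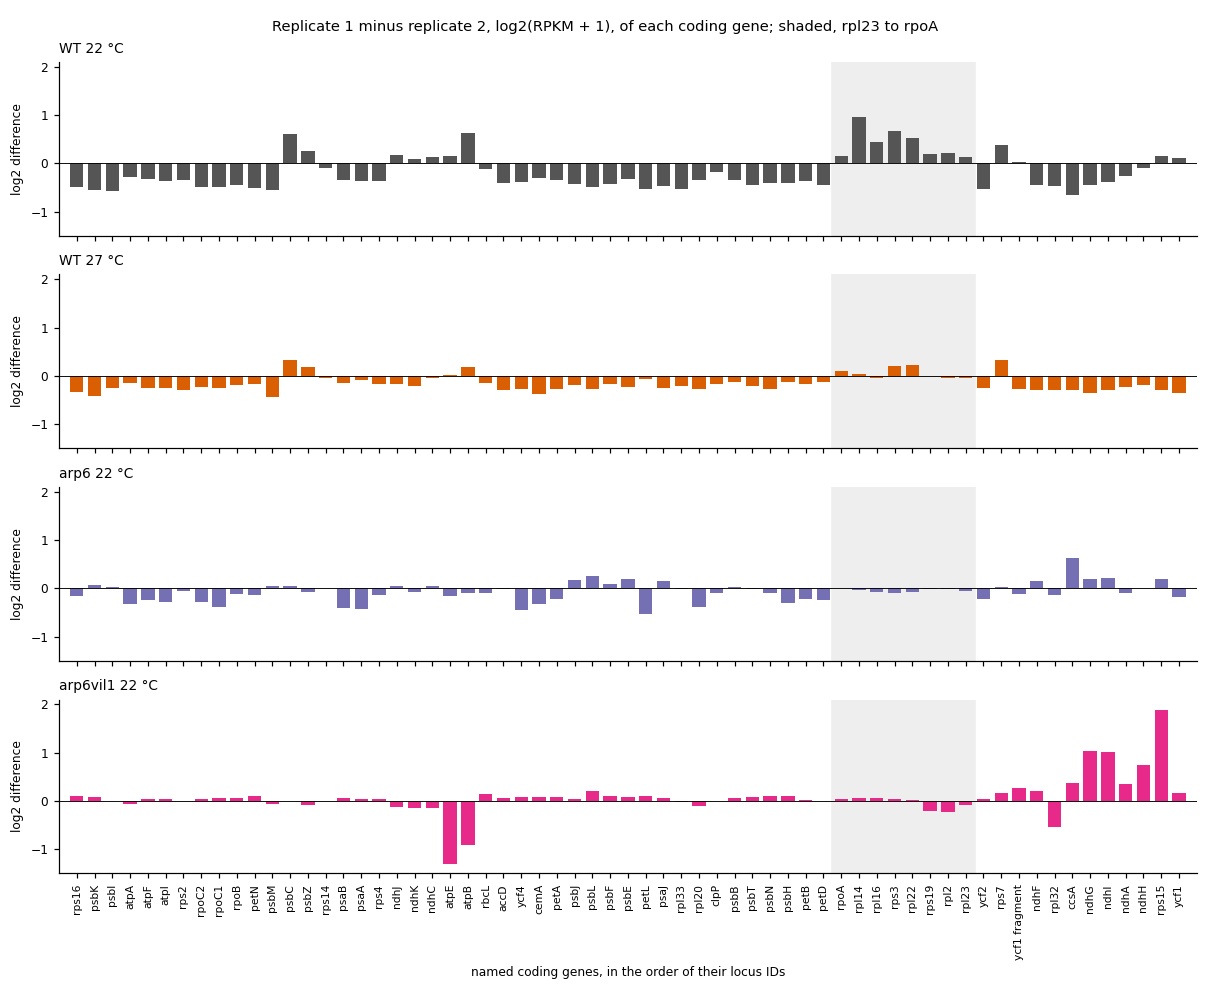
Replicate 1 minus replicate 2 on the log2(RPKM + 1) scale (y axis) for 63 named coding genes in locus ID order (x axis), in 4 groups. In WT at 22 °C the shaded genes from rpl23 to rpoA are all above 0 while most others are below it; in arp6vil1 differences beyond 1 are found in atpE and in ndhG, ndhI and rps15.

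Nuclear genes of organelle transcription, nearly all of plastids, were followed as a list of 21. The list takes in the phage-type polymerase of mitochondria, which its counts and medians include. Of the 21, comprising 6 sigma factors, 3 phage-type polymerases and 12 polymerase-associated proteins, 18 (85.7%) rose in WT at 27 °C and none fell, against 16.9% of all features higher and 3.61% lower, with a median log2 change of 0.63. All 6 sigma factors were among them. The largest rise was FLN1, a kinase-like protein of the polymerase complex, from 12.4 ± 1.62 RPKM to 29.2 ± 0.993 RPKM, a log2 change of 1.17 ± 0.10 (SE; adjusted p = 0.000237). Mitochondrial genes, the other organelle's set, rose in 44 of 152 rows (28.9%, against the same 16.9%) and fell in 2.

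In vil1 no chloroplast row passed between 27 °C and 22 °C, where 2.4% of all features were called. At an unadjusted p under 0.05 there were 10 rows, and limma-voom on reads recovered from the table called 2. The level of rps3 in vil1 was 367 and 399 RPKM at 22 °C and was 436 and 568 at 27 °C, and the pairs do not overlap (0.38 ± 0.20 (SE; adjusted p = 0.366)). The largest coding change downwards was rpl32, at -0.35 (adjusted p = 0.417). Of the nuclear list 4 of 21 rose, led by FLN1 at 0.74, and 47 of 152 mitochondrial rows rose, against 1.94% of all features. The difference between the 2 warm responses, tested directly, called no feature of the 31454 (0% of the background), with 21 chloroplast rows and 3880 features at an unadjusted p under 0.05. For rps3 that difference was -0.95 ± 0.28 (SE; adjusted p = 0.372), and for rpoA -0.61 ± 0.14 (SE; adjusted p = 0.372). A response that passes in WT and not in vil1 is thus not shown to differ between them. Without WT replicate 1 at 22 °C, 15 chloroplast rows passed for this difference, and without replicate 2 none did.

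At 22 °C 6 of the 8 run genes passed as higher in vil1 than in WT, and rpl2 (0.39, adjusted p = 0.0711) and rpl23 (0.35, adjusted p = 0.0564) did not. Of 133 rows 9 were higher and 1 lower, or 7.52%, against 4.1% of all features (2.15% higher and 1.95% lower). After quantile normalization 4 were higher and 2 lower, against 4.8% of all features. The 9 include rps19, rpl22, rps3, rpl16, rpl14, rpoA and ATCG00760, and the 1 lower row is ATCG00410, a tRNA gene. The largest was rpl14, a large-subunit protein. The RPKM of rpl14 was 424 and 218 in WT at 22 °C, 596 and 578 in WT at 27 °C, 597 and 626 in vil1 at 22 °C and 509 and 644 in vil1 at 27 °C. Its log2 difference was 1.00 ± 0.24 (SE; adjusted p = 0.0474), with both vil1 libraries above both WT libraries. Outside the run 55 coding genes had a median difference of -0.31 and none passed. Some had both vil1 libraries above both WT libraries: atpB (0.73), rps7 (0.61), psbC (0.50) and ycf1 (0.36). The run genes rpoA and rps19 stood at 0.41 and 0.48, so differences of this size were not particular to the run. Also outside it, rpoB, rpoC1 and rpoC2 differed by -0.51, -0.52 and -0.47, and rbcL by -0.20. These calls lie close to the threshold and share the WT libraries at 22 °C with the warm comparison: without WT replicate 2 at 22 °C none passed, without replicate 1 75 did, and none passed with the values centred on the chloroplast genes or with the replicate block. None passed with only the libraries of the groups compared in the fit, or with the 8 WT and vil1 libraries alone. The calls at 22 °C thus also rest on a spread estimated with libraries outside the comparison. At 27 °C no row passed between vil1 and WT (0.922% of all features called, 19 chloroplast rows at an unadjusted p under 0.05), and rps3 stood at -0.09. Of the nuclear list 2 of 21 genes were higher in vil1 at 22 °C, the sigma factors SIGF (0.64 ± 0.15 (SE; adjusted p = 0.0476)) and SIG4 (0.55 ± 0.13 (SE; adjusted p = 0.0484)), and none at 27 °C.

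**Figure D4:**
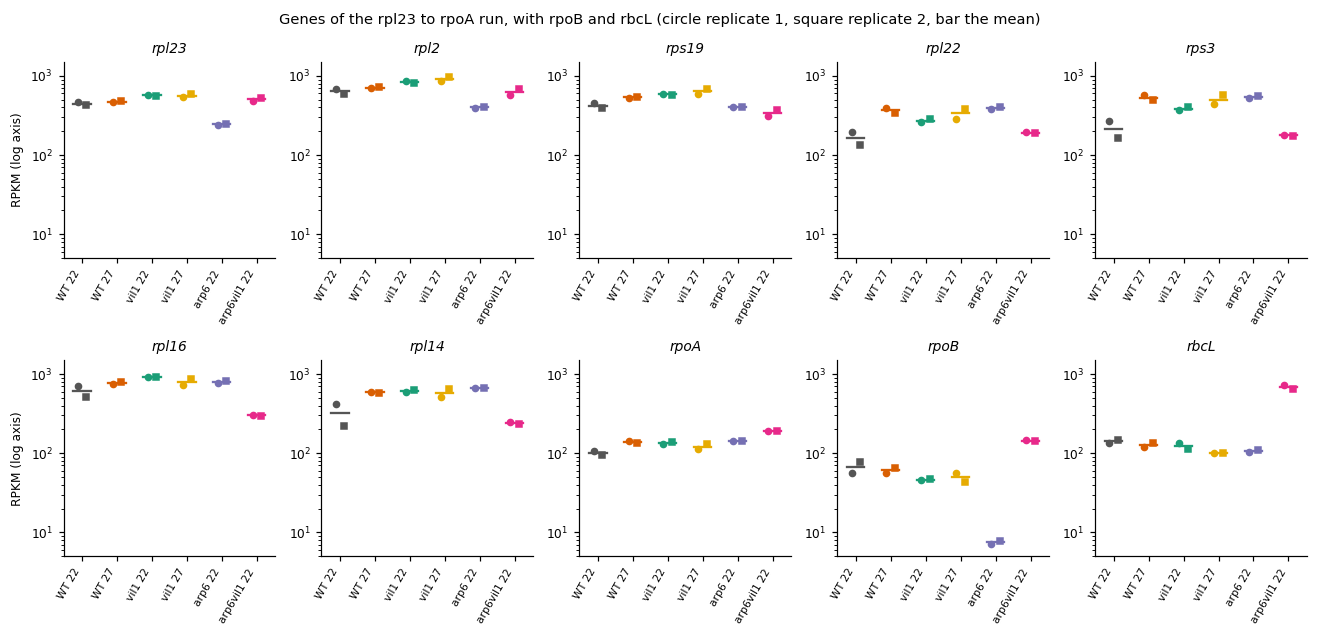
RPKM (log axis) of the 8 run genes from rpl23 to rpoA, with rpoB and rbcL beside them, in each library; circles are replicate 1, squares replicate 2 and bars the mean. From rpl22 to rpoA arp6 lies above WT at 22 °C, whereas rpoB is at 7.17 and 7.86 RPKM in arp6 against 56.7 and 77.8 in WT.

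In arp6 most chloroplast transcripts were lower than in WT, while 5 of the 8 run genes were higher. Of 133 rows 114 fell and 10 rose, together 93.2%, against 82.3% of all features (61.8% lower and 20.6% higher). The median log2 change of the 65 coding genes was -1.78, against -0.64 over all features tested. All 13 named genes of photosystem II, 3 of photosystem I, 5 of cytochrome b6f, 5 of ATP synthase and 8 of the NDH complex fell, as did all 37 tRNA rows. The median log2 change was -1.98 in photosystem II, -1.01 in photosystem I, -2.28 in cytochrome b6f, -1.68 in ATP synthase, -1.78 in the NDH complex and -3.14 over the 4 polymerase genes. Ribosomal protein genes were split: 4 rose and 4 fell in the small subunit, and 3 rose and 5 fell in the large. Beside these counts stand the 6651 and 6566 features at 0 in these libraries and a median of 0 for nuclear tRNA genes. Their part in the falls was not tested. With each library centred on the median of its chloroplast coding genes, 34 rows were higher and 70 lower, against 82.5% of all features called.

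The deepest fall of a named coding gene was that of ycf2, a subunit of the motor that pulls proteins through the inner envelope. For ycf2 the levels were 109.9 and 159.7 RPKM in WT at 22 °C, 113 and 135 in WT at 27 °C, 89.6 and 96.3 in vil1 at 22 °C and 114 and 86.6 in vil1 at 27 °C. It stood at 2.80 and 3.42 in arp6 and at 323 and 312 in arp6vil1. Its 1053 and 1236 reads in the arp6 libraries put these levels well above the counting floor. The log2 change was -5.03 ± 0.18 (SE; adjusted p = 2.14e-08). Next came rps16, a small-subunit protein (-4.38), then rpoC2, accD and rpoC1. Levels of rpoC2 were 51.7 and 72.8 RPKM in WT at 22 °C, 53.9 and 63.4 in WT at 27 °C, 42.5 and 45.5 in vil1 at 22 °C and 53.6 and 41.1 in vil1 at 27 °C. Values without ARP6 were 3.52 and 4.52 in arp6 and 142 and 137 in arp6vil1. Its change was -3.64 ± 0.17 (SE; adjusted p = 1.23e-07). The change of rpoC1 was -3.30 ± 0.18 (SE; adjusted p = 2.83e-07). rpoC1 was at 51.8 and 73.5 RPKM in WT at 22 °C, 54.4 and 65.3 in WT at 27 °C, 41.3 and 44.2 in vil1 at 22 °C and 54.1 and 42.8 in vil1 at 27 °C. In arp6 it was 4.56 and 6.30, and in arp6vil1 137 and 132. The change of rpoB, the first gene of that group, was -2.99 ± 0.16 (SE; adjusted p = 1.98e-07). The RPKM of rpoB was 56.7 and 77.8 in WT at 22 °C, 56.7 and 65.1 in WT at 27 °C, 45.2 and 47.7 in vil1 at 22 °C and 56.5 and 43.7 in vil1 at 27 °C. The arp6 libraries held 7.17 and 7.86 and the arp6vil1 libraries 148 and 141. All 3 polymerase genes showed no overlap between the arp6 libraries and any other.

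Against these falls rpoA, the fourth core subunit, rose in arp6, at 141 and 141 RPKM against 107 and 95.9 in WT, a log2 change of 0.48 ± 0.10 (SE; adjusted p = 0.00089). Within a library, free of the table's scaling, rpoA per length was 1.88 and 1.23 times rpoB in WT at 22 °C and 19.7 and 17.9 times in arp6. It was 1.30 and 1.34 times rpoB in arp6vil1. Within the rpoB group itself, rpoC2 stood at 0.910 to 0.974 of rpoB in the 10 libraries other than arp6 and at 0.490 and 0.574 in arp6.

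Also among the largest falls was accD, the plastid-encoded subunit of acetyl-CoA carboxylase. For accD the levels were 47.4 and 63.5 RPKM in WT at 22 °C, 46.4 and 57.2 in WT at 27 °C, 41.5 and 41.2 in vil1 at 22 °C and 47.9 and 39.5 in vil1 at 27 °C. It stood at 3.81 and 3.85 in arp6 and at 174 and 166 in arp6vil1. The log2 change was -3.53 ± 0.15 (SE; adjusted p = 4.99e-08). The gene clpP, which encodes the catalytic subunit of the plastid Clp protease, was less affected, with a change of -2.37 ± 0.09 (SE; adjusted p = 3.55e-08). Levels of clpP were 101 and 113 RPKM in WT at 22 °C, 100.1 and 113 in WT at 27 °C, 103 and 102 in vil1 at 22 °C and 117 and 114 in vil1 at 27 °C. Values without ARP6 were 19.2 and 20.6 in arp6 and 187 and 187 in arp6vil1. In photosystem I psaA and psaB changed by -1.01 and -0.89. In photosystem II the range was from -2.77 for psbN to -0.86 for psbC. The change of petN, a small subunit of cytochrome b6f, was -2.80 ± 0.18 (SE; adjusted p = 7.59e-07). petN was at 99.5 and 142 RPKM in WT at 22 °C, 103 and 116 in WT at 27 °C, 92.2 and 81.2 in vil1 at 22 °C and 104 and 73.8 in vil1 at 27 °C. In arp6 it was 15.4 and 17.1, and in arp6vil1 278 and 260.4. The smallest called fall of a named coding gene was that of rbcL. The RPKM of rbcL was 136 and 148 in WT at 22 °C, 119 and 133 in WT at 27 °C, 133 and 113 in vil1 at 22 °C and 99.9 and 102 in vil1 at 27 °C. The arp6 libraries held 103 and 110.4 and the arp6vil1 libraries 726 and 654. Both arp6 libraries were below both WT libraries at 22 °C, with a change of -0.41 ± 0.11 (SE; adjusted p = 0.00505), and relative to the other chloroplast genes rbcL was higher, by 1.20 after centring.

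The 10 rows that rose in arp6 include rpoA, ATCG00760, rpl14, rpl16, rps3, rpl22 and both copies of rps7. The largest rise was again rps3, at 532 and 565 RPKM in arp6 and 180.1 and 175 in arp6vil1, against 266 and 167 in WT at 22 °C, a log2 change of 1.38 ± 0.20 (SE; adjusted p = 8.8e-05). On the rpl23 side of the run the genes did not rise: rps19 did not pass (-0.05), and rpl2 and rpl23 fell by 0.66 and 0.85. The ratio of the median of the 8 run genes to that of 55 coding genes outside it was 5.07 and 2.70 in WT at 22 °C, 6.27 and 4.81 in WT at 27 °C, 6.53 and 6.82 in vil1 at 22 °C and 5.95 and 7.66 in vil1 at 27 °C. It was 12.5 and 13.5 in arp6 and 0.887 and 0.938 in arp6vil1. The WT libraries at 22 °C overlapped those at 27 °C, and the 2 groups without ARP6 stood outside the range of the 8 WT and vil1 libraries on either side.

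Genes of the nuclear list mostly rose in arp6. Of the 21, 17 rose and 1 fell, against 20.6% of all features higher and 61.8% lower, with a median log2 change of 0.99. The largest rise was PTAC12, a polymerase-associated protein, from 4.28 ± 0.816 RPKM to 28.7 ± 0.0386 RPKM, and the fall was PTAC7, another such protein, at -0.40. In mitochondria 131 of 152 rows (86.2%) fell and 3 rose, against that same 61.8% and 20.6%. This background takes in noncoding rows, and the arp6 libraries list 6651 and 6566 features at 0. The median log2 level of nuclear coding genes differed by only -0.17 between arp6 and WT. No share called among nuclear coding genes alone is given, so the list is not set against its like.

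In arp6vil1 most chloroplast transcripts were higher than in WT at 22 °C. Of 133 rows 110 rose and 7 fell, or 88.0%, against 66.1% of all features. Rises make up 4.91% of that background and falls 61.2%. The median log2 change of the coding genes was 1.11, against -0.54 over all features tested. All 13 genes of photosystem II, 3 of photosystem I, 5 of cytochrome b6f and the 4 polymerase genes rose, as did all 8 rRNA rows and 31 of 37 tRNA rows. These values depend on the scaling: with each library centred on its chloroplast coding genes 25 rows rose and 48 fell (98.4% of all features called), and the 4 polymerase genes stood at -0.47 (rpoA) to -0.20 (rpoC2). The first count describes change relative to all transcripts, the second change relative to the other chloroplast genes. The median nuclear coding gene stood at 1.94 and 1.79 RPKM in these libraries, and the part of that in the rise was not tested.

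Among photosynthesis genes rbcL rose from 136 and 148 RPKM in WT to 726 and 654 in arp6vil1, a log2 change of 2.27 ± 0.11 (SE; adjusted p = 3.09e-07). It also rose relative to the other chloroplast genes, by 0.90 after centring. ATCG00020 was higher still, at 4067 and 3592 RPKM against 473 and 571 in WT, a log2 change of 2.88 ± 0.17 (SE; adjusted p = 6.98e-07). For ATCG00020 the levels were 473 and 571 RPKM in WT at 22 °C, 318 and 397 in WT at 27 °C, 403 and 301 in vil1 at 22 °C and 247 and 260.4 in vil1 at 27 °C. It stood at 395 and 332 in arp6 and at 4067 and 3592 in arp6vil1. Its partner in length, ATCG00270, changed by 0.76 ± 0.18 (SE; adjusted p = 0.00342). Levels of ATCG00270 were 541 and 379 RPKM in WT at 22 °C, 738 and 583 in WT at 27 °C, 670.0 and 575 in vil1 at 22 °C and 661 and 818 in vil1 at 27 °C. Values without ARP6 were 189 and 194 in arp6 and 749 and 781 in arp6vil1. The largest rise of a named coding gene was that of ndhI, an NDH subunit. ndhI was at 65.9 and 86.2 RPKM in WT at 22 °C, 67.4 and 82.7 in WT at 27 °C, 68.8 and 60.8 in vil1 at 22 °C and 71.8 and 60.2 in vil1 at 27 °C. In arp6 it was 23.0 and 19.6, and in arp6vil1 539 and 267. The log2 change was 2.32 ± 0.27 (SE; adjusted p = 2.6e-05), but its arp6vil1 libraries lie far apart. With ndhG (2.24) it lies in a stretch that differs between those libraries, described at the end.

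The 7 rows that fell in arp6vil1 lie in few places. The largest fall was atpE. The RPKM of atpE was 3709 and 3350.1 in WT at 22 °C, 3176 and 3123 in WT at 27 °C, 4266 and 4158 in vil1 at 22 °C and 3639 and 3769 in vil1 at 27 °C. The arp6 libraries held 1075 and 1204 and the arp6vil1 libraries 801 and 1974. Its log2 change was -1.49 ± 0.31 (SE; adjusted p = 0.00139), and that of its neighbour atpB -1.30 ± 0.26 (SE; adjusted p = 0.00125). By contrast atpA, atpF and atpI, which encode other subunits of the ATP synthase, rose by 1.71, 1.76 and 1.17. Per length, atpB was 13.1 to 40.5 times atpA in the other 10 libraries and 1.64 and 2.94 times in arp6vil1. The neighbouring genes ndhC, ndhK and ndhJ, 3 NDH subunits, fell by 0.28, 0.57 and 0.32, while the other 5 named ndh genes rose. For ndhK the levels were 762 and 714 RPKM in WT at 22 °C, 660.2 and 763 in WT at 27 °C, 851 and 824 in vil1 at 22 °C and 832 and 813 in vil1 at 27 °C. It stood at 208 and 220.1 in arp6 and at 471 and 524 in arp6vil1. In the ribosomal run rpl16 and rps19 fell by 1.00 and 0.30. Levels of rps19 were 449 and 391 RPKM in WT at 22 °C, 533 and 537 in WT at 27 °C, 596 and 574 in vil1 at 22 °C and 595 and 678 in vil1 at 27 °C. Values without ARP6 were 402 and 407 in arp6 and 315 and 367 in arp6vil1. Under centring on nuclear coding genes ndhK and rps19 turned to 0.28 and 0.55. Uncentred minus centred values differ by -0.85 for every gene of this comparison. The falls of ndhC and ndhJ are smaller than that, so they change sign too. The falls of atpE, atpB and rpl16 are larger and keep their sign.

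The comparison of arp6vil1 with arp6 gave the widest changes. Of 133 rows 121 were higher and 6 lower in arp6vil1, or 95.5%, against 79.1% of all features (41.1% higher and 38% lower). After centring on the chloroplast coding genes 73 were higher and 45 lower, against 99.1% of all features. The median difference of the coding genes was 3.10 on the log2 scale, against 0.12 over all features tested. The largest rise of a named coding gene was ycf2 at 6.28 ± 0.18 (SE; adjusted p = 8.99e-09), followed by rps16 (5.41), accD (5.15) and rpoC2 (4.81). The 6 lower rows include ATCG00760, rpl14, rpl16, rps3 and rpl22, and the largest fall was rps3 at -1.62 ± 0.20 (SE; adjusted p = 2.6e-05). Relative to WT, with which both mutants share the comparison, ycf2 was at -5.03 in arp6 and 1.26 in arp6vil1, and rps3 at 1.38 and -0.24. Of the nuclear list 20 of 21 genes were lower in arp6vil1 than in arp6 and 20 of 21 lower than in WT, where 38% and 61.2% of all features were lower. The largest fall against WT was SIG4, a sigma factor, from 14.1 ± 2.81 RPKM to 2.73 ± 0.119 RPKM, and that against arp6 was PTAC12 at -3.40. Mitochondrial rows rose in 133 of 152 against WT and in all 152 against arp6, where 4.91% and 41.1% of all features were higher.

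In photosystem I psaJ was the highest per length. psaJ was at 485 and 677 RPKM in WT at 22 °C, 315 and 378 in WT at 27 °C, 469.8 and 437 in vil1 at 22 °C and 398 and 369.5 in vil1 at 27 °C. In arp6 it was 177 and 159, and in arp6vil1 785 and 755. Its values in arp6 were below all others. The large gene ycf1 was the highest of the other coding genes on average. The RPKM of ycf1 was 190.1 and 177 in WT at 22 °C, 225 and 288 in WT at 27 °C, 238 and 233 in vil1 at 22 °C and 252 and 243 in vil1 at 27 °C. The arp6 libraries held 162 and 183 and the arp6vil1 libraries 227 and 202. Neither mutant passed: its changes in arp6 and arp6vil1 were -0.09 (adjusted p = 0.519) and 0.22 (adjusted p = 0.136).

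The 16S gene, rrn16S, encodes the RNA of the small ribosomal subunit. For rrn16S the levels were 1084 and 949 RPKM in WT at 22 °C, 737 and 807 in WT at 27 °C, 984 and 707 in vil1 at 22 °C and 569.5 and 543 in vil1 at 27 °C. It stood at 917 and 1634 in arp6 and at 11039 and 9746 in arp6vil1. In arp6 the 2 libraries lay on both sides of WT and the change of 0.27 ± 0.24 (SE; adjusted p = 0.306) missed the threshold, as did that of rrn23S (0.36). In arp6vil1 they rose by 3.35 and 3.01. The short rRNA gene rrn4.5S fell by 1.42 in arp6. All 37 tRNA rows were lower in arp6, from -1.02 for ATCG00010 to -6.47 for trnL (ATCG00880), with a median of -3.26. Levels of trnL were 161 and 236 RPKM in WT at 22 °C, 148 and 180.2 in WT at 27 °C, 137 and 136 in vil1 at 22 °C and 150.3 and 122 in vil1 at 27 °C. Values without ARP6 were 0.687 and 1.91 in arp6 and 468 and 459 in arp6vil1. The arp6 values of this row rest on 3 and 8 reads, so the size of its fall depends on the 1 added before the log2. Other tRNA rows were also near the counting floor in arp6, such as ATCG00230 with 5 and 2 reads.

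Replicates of the mutants without ARP6 differed widely in some rows. In arp6vil1 13 rows were over 1 log2 unit higher in replicate 1 and 2 in replicate 2, and in arp6 7 were higher in replicate 1. In each WT and vil1 group 0 to 2 rows differed this much. The 2 rows higher in arp6vil1 replicate 2 are trnY and atpE, at a difference of -1.30 for atpE, and its neighbour atpB differed by -0.91. By their IDs the rows higher in replicate 1 run from ATCG00970, an rRNA row, through tRNA rows to ndhG, ndhI and rps15, with repeat copies of the first of them. Not all genes between these share the difference: in arp6vil1 ndhF, ccsA and ndhA differed by 0.20, 0.38 and 0.35, and rpl32 by -0.55. The tRNA row trnL (ATCG01030) shows the widest gap. trnL was at 76.5 and 116 RPKM in WT at 22 °C, 84.9 and 91.1 in WT at 27 °C, 73.0 and 59.9 in vil1 at 22 °C and 84.2 and 68.9 in vil1 at 27 °C. In arp6 it was 37.6 and 1.21, and in arp6vil1 909.6 and 136. The gene rps15 stood at 684 and 186 RPKM in arp6vil1 and 108 and 94.6 in arp6. The 2 copies of rrn4.5S, which have equal lengths, were at 1648 and 2370 RPKM in arp6vil1 replicate 1 and at 962 and 956 in replicate 2. Changes given for atpE, atpB, ndhG, ndhI, rps15 and these RNA genes in arp6vil1 rest on libraries that differ this much. The fit shares 1 spread per gene over all 12 libraries, so these gaps also widen the SE of the same genes in the other comparisons. The cause was not tested.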

How the data were processed

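RNA-seq libraries of 14-day seedlings were analysed, 12 in 6 groups of 2. The authors deposited 1 table of RPKM values, scaled to each library's depth and to gene length. Per the submitters' processing notes the build was TAIR10 and the tools included HISAT2, Bowtie2, FastQC, edgeR, SAMtools and bedtools, with no role given. The counting method, its strand setting and its treatment of reads that map to several places are not given in the sources used here. Each library's depth was taken as the read total that turns its values into whole reads (99.9% or more of the values of nuclear rows with a reference length came within 0.02 reads), which also gives each row's length. That length equalled the reference in 650 of 651 nuclear rows checked. Names of coding genes follow from lengths that match 1 name only. The 65 names stand in the order of the reference in 64 of 64 neighbouring pairs.

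The main test was limma 3.58.1 in R 4.3.3 on log2(RPKM + 1), with 1 mean per group over all 12 libraries and a variance trend over the mean level. Features needed an RPKM of 1 in 2 libraries or more, which left 31454, all 133 chloroplast rows among them. An adjusted p (Benjamini-Hochberg over all features) under 0.05 was called. With 2 libraries a group, no permutation of the labels could give a two-sided p under 0.333, so none was run. A log2 change on this scale understates the change of low genes. Figures used matplotlib 3.10.9. The fit was tested on simulated data. Alternatives were other pseudocounts, filters, scalings and sets of libraries, a replicate block, and limma-voom on recovered reads. The members, lists and tests were chosen with earlier results of these data known. Values in every library are given for rbcL, the rpo genes, accD, clpP, the 2 rows of psbA length, the highest coding gene of each class, and the largest called rise and fall. Nuclear genes are named where they are the largest called rise or fall of their list. Some coding genes are not reported here singly and enter only the counts and medians over all rows or a class.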

Additional observations from a re-analysis of the deposited data

How the results depend on the processing

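The counts of called chloroplast rows for arp6 against WT and for arp6vil1 against arp6 stayed within 1.5 times of 124 and 127 under every alternative run. The count for arp6vil1 against WT (117) moved past that only with chloroplast centring, to 73. For WT at 27 against 22 °C (21 rows) it was 8 with only the libraries compared in the fit, and leaving out 1 library gave 10 to 39. For vil1 at 27 against 22 °C (0 rows) it was 4 with a mean RPKM of 5 or more, 5 with only the libraries compared, 2 with voom, and 0 to 3 leaving out 1 library. The difference of the warm responses (0) ranged from 0 to 15 leaving out 1 library. For vil1 against WT at 22 °C (10) it was 4 with a pseudocount of 0.1, 0 without a filter, 20 with a mean RPKM of 5 or more, 6 after quantile normalization, 18 with voom, and 0 with chloroplast centring, with only the libraries compared, with the 8 WT and vil1 libraries alone and with the replicate block. Leaving out 1 library gave 0 to 75. At 27 °C (0) it was 2 after nuclear centring, 1 after chloroplast centring and 1 with voom. With voom the counts for WT at 27 °C, arp6, arp6vil1 and arp6vil1 against arp6 were 23, 126, 118 and 128. The voom fit and that of the 8 libraries alone were added after the data were seen. The cause was not tested.

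The log2 change of the median nuclear gene was shifted by each scaling. Uncentred minus nuclear-centred values differed by 0.22 (WT warm), 0.15 (vil1 warm), -0.06 (vil1 at 22 °C), -0.13 (vil1 at 27 °C), -0.17 (arp6), -0.85 (arp6vil1 against WT) and -0.68 (arp6vil1 against arp6). For quantile normalization these shifts were 0.11, 0.12, -0.11, -0.14, -0.34, -0.56 and -0.22, and for chloroplast centring they were -1.61 in arp6, 1.37 in arp6vil1 and 2.98 between the mutants. Reversals were looked for only among called changes of the genes whose values are given in every library. Centring moves every gene of a comparison by the same amount, so other genes change sign too. Among these are psaA, psaB, psbC, rpl2 and rpl23 in arp6 with chloroplast centring, and ndhC and ndhJ in arp6vil1 with nuclear centring. In the genes looked at, the reversed log2 changes were as follows. With quantile normalization psbM was at 0.19 in WT at 27 °C and -0.34 in arp6vil1, and ycf1 at -0.001097 in arp6vil1 against arp6. With nuclear centring ndhK was at 0.28 and rps19 at 0.55 in arp6vil1. With chloroplast centring arp6 against WT gave ATCG00020 1.09, ATCG00270 0.37 and rbcL 1.20. In arp6vil1 against WT it gave ATCG00270 -0.62, rpoA -0.47, rpoB -0.27, rpoC1 -0.27, rpoC2 -0.20, clpP -0.57, psbM -0.80, psaJ -0.95 and petN -0.20. In arp6vil1 against arp6 it gave ATCG00270 -0.99, rbcL -0.30, rpoA -2.55, psbM -0.42, rpl32 -0.99, ndhK -1.77, psaJ -0.79 and ycf1 -2.67. Leaving out 1 library in turn, the called changes of single genes named stayed called in 652 fits, lost their call in 80 and reversed in 0. The chloroplast share of summed RPKM was 3.34% to 11.1% with protein-coding genes alone in the sum and 2.45% to 14.3% as a share of reads, as group means, with arp6 lowest and arp6vil1 highest in both.

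The labels give no meaning to numbers 1 and 2, which were not taken to pair the libraries: deviations of same-numbered libraries correlated from -0.35 (WT at 22 °C with vil1 at 27 °C) to 0.40 (WT at 22 °C with WT at 27 °C, the warm comparison) over 15 pairs of groups. In both these WT groups replicate 1 was the lower for most coding genes outside the run, 44 and 50 of 55. The replicate block gave 16 rows for WT at 27 °C, 124 for arp6, 117 for arp6vil1 and 126 for arp6vil1 against arp6, and 0 in the other comparisons. The 2 libraries a group limit the precision.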
